A study of Mus musculus with 14 samples.

Results

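The genes described here are 8 mouse genes of programmed cell death: the inflammatory caspases Casp1, Casp4 and Casp12, the apoptotic initiator caspase Casp8, the death receptor Fas, and the necroptosis genes Ripk3, Mlkl and Zbp1. They were chosen by name: every non-control probe that the scanner files annotate with one of these symbols was taken, which gave 9 probes of 41174 on the array, for 8 of 28478 genes. Tumours of the mouse melanoma line B16F10 were grown in C57BL/6 mice, and 9 days after challenge (day 0) the mice received CTLs, cytotoxic T lymphocytes activated in vitro that carry CD90.1 and recognise the melanoma antigen gp100. Whole tumours were profiled on Agilent one-colour arrays, 14 in all.

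In the first arm the mice received CTLs and an antibody that blocks interferon gamma, injected into the peritoneum on days 0 and 2, and tumours were taken on days 3, 5 and 7. In the second arm they received CTLs and control rat IgG on the same schedule, with the same days of harvest. In the third arm they received CTLs alone, and in the last arm they were untreated, that is, they carried the tumour without cell transfer, and both were sampled on days 1, 3, 5 and 7. Each array held RNA pooled from 3 tumours in the antibody arms and from 4 tumours in the other arms, with 1 array per arm and day. The arrays therefore carry no measure of the spread between mice, and the errors and p-values below measure how same-day differences between pools varied over the days. All tumours came from 1 cell line, and the pools are bulk tissue, in which a change in the number of cells of a type and a change in RNA per cell cannot be told apart.

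Caspases are cysteine proteases made as inactive precursors. Caspase-1 and caspase-11, the product of mouse Casp4, act in pyroptosis, an inflammatory lysis in which they cleave gasdermin D. Fas, when bound by its ligand, recruits and activates caspase-8, which triggers apoptosis and at the same time restrains the kinase RIPK3. RIPK3 drives necroptosis by phosphorylating MLKL, which then breaches the plasma membrane, and ZBP1 is a sensor of Z-form nucleic acids that can engage RIPK3. Interferons are textbook inducers of several of these genes, through sites in their promoters.

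Promoter sequence was therefore examined for the genes with an entry in the RefSeq-derived promoter table (build GRCm38.p6, 250 bases before to 50 bases after the start). Of the 8 genes, 7 had an entry, with 8 promoters between them. Zbp1 had none, so no Zbp1 promoter was searched. Each was searched on both strands for the gamma-activated site, TTCNNNGAA, and for the core of the interferon-stimulated response element, GAAA and GAAA with any 2 bases between them. The gamma-activated site occurred in 2 of the 7 genes, Casp12 and Fas, and in 9.55% of the 27025 genes of the table, or 8.3% of its 32851 promoters. No match to the response element core was found in these 8 windows, and it occurred in 3.44% of all promoters. The Casp12 window (chr9:5345226-5345525, plus strand) and the Fas window (chr19:34290409-34290708, plus strand) follow because they hold the matches, which are in capitals.
Casp12: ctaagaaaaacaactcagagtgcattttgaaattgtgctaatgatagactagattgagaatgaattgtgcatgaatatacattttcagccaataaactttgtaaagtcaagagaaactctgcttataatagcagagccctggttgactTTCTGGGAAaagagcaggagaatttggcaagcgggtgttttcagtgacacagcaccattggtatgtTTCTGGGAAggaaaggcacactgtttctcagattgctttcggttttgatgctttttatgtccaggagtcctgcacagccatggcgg
Fas: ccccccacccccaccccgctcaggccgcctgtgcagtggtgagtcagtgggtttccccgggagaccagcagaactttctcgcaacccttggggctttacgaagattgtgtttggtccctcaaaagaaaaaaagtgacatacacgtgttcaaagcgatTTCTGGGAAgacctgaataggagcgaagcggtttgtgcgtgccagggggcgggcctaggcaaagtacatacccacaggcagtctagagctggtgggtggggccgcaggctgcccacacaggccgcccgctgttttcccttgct
In both promoters the matching letters were TTCTGGGAA, at 102 and 36 bases before the start in Casp12 and at 93 bases before it in Fas. A match describes the letters only, and binding was not measured.

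Levels below are log2 processed signals relative to the 75th percentile of each array, so that 0 is the level that 75% of spots lie below. They compare 1 probe between arrays and not different probes with each other. The 75th percentile lay between 301 and 536 signal units over the 14 arrays, and 48.9% to 59.7% of the 43379 non-control spots were well above background. Among 7 melanocyte markers none passed the test in any comparison of the arms, and their summed signal, in units of the 75th percentile, was 1444 to 1658 with anti-interferon gamma, 1517 to 1553 with IgG, 1480 to 1724 with CTLs alone and 1297 to 1826 in untreated tumours. Each day was hybridised on its own slide, with each arm at the same position of every slide, so day and slide, and arm and position, cannot be told apart.

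With CTLs, 7 of the 8 genes rose over days 3 to 7, all but Casp8, and with interferon gamma blocked the same 7 were lower than under control IgG. Of all genes tested, 10.1% were called higher and 21.4% lower with CTLs, and 5.93% lower and 6.62% higher with the block. Zbp1 changed most, by 88.7-fold in tumours with CTLs relative to untreated tumours and by 75.3-fold, downward, with the block. Casp12 followed at 33.8-fold and 24.6-fold. Sizes depend on the background correction: with normexp the log2 change with CTLs was 5.44 in Zbp1 and 3.37 in Casp12, against 6.47 and 5.08 as reported here. On day 1 after transfer none of the 8 genes differed between CTL and untreated tumours by more than 0.57 on the log2 scale.

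**Figure D1:**
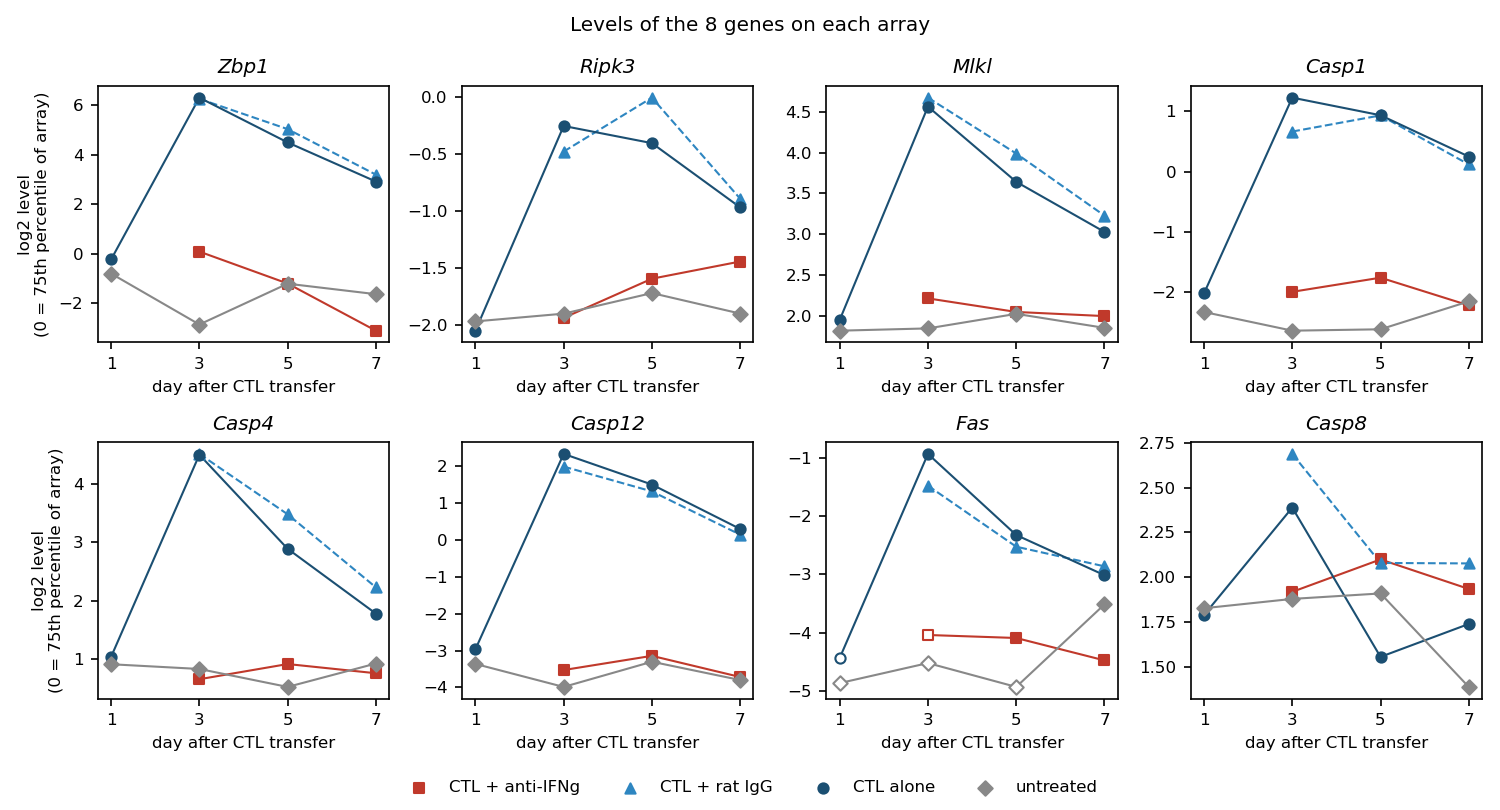
Log2 level of each gene on each of the 14 arrays (0 is the array's 75th percentile) against the day after transfer, with 1 point per array of pooled tumours; open symbols mark arrays on which the probe was not well above background, and each panel has its own vertical scale. With CTLs alone or with IgG, 7 genes stand above the other arms from day 3, as in Zbp1 at 6.31 with CTLs on day 3 against -2.85 in untreated tumours, while the Casp8 points of the arms overlap.

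Of the necroptosis genes, Zbp1 (probe A_51_P184936, mm8 chr2:172849549-172849608) stood at -0.22, 6.31, 4.50 and 2.92 on days 1, 3, 5 and 7 in tumours with CTLs alone, against -0.79, -2.85, -1.20 and -1.63 in untreated tumours. With anti-interferon gamma it was 0.09, -1.19 and -3.10 on days 3, 5 and 7, against 6.26, 5.04 and 3.20 with IgG. The arms did not overlap over days 3 to 7 in either comparison, and the signal decayed from day 3 onward in every arm that received CTLs, the blocked one included. The difference between blocked and IgG tumours was therefore about as large on day 7 (-6.30) as on day 3 (-6.17). Over days 3 to 7, Zbp1 was higher with CTLs than in untreated tumours by 6.47 ± 0.81 (SE; limma adjusted p = 0.00135) and lower with the block than with IgG, at -6.23 ± 0.81 (limma adjusted p = 0.00388). The change with CTLs was 5.13 without day 3, 7.43 without day 7 and 5.00 with all 14 arrays and 1 CTL effect.

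Ripk3, the kinase at the centre of necroptosis (A_51_P491987, chr14:54739183-54739242), was -2.05, -0.25, -0.40 and -0.96 with CTLs alone on days 1, 3, 5 and 7, against -1.96, -1.90, -1.72 and -1.90 in untreated tumours. With the block it was -1.93, -1.59 and -1.44, against -0.48, -0.0029 and -0.89 with IgG. These groups were also separate from day 3, although the gap between blocked and IgG tumours was narrower on day 7 (-0.55) than on day 3 (-1.46). The change with CTLs was 1.30 ± 0.23, or 2.46-fold (limma adjusted p = 0.00527), and with the block it was -1.20 ± 0.23, or 2.30-fold lower (limma adjusted p = 0.0132). It was the smallest of the changes that passed the test, in both comparisons.

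Mlkl, which encodes the executioner of necroptosis (A_51_P440535, chr8:114198670-114198729), had levels of 1.95, 4.56, 3.64 and 3.03 with CTLs alone on days 1, 3, 5 and 7, against 1.82, 1.85, 2.03 and 1.85 in untreated tumours. Under the block they were 2.21, 2.05 and 2.00, against 4.67, 3.99 and 3.23 under IgG. The untreated and blocked arrays thus lay in a narrow band, below every CTL or IgG array of days 3 to 7. Mlkl rose by 1.83 ± 0.30 with CTLs, or 3.57-fold (limma adjusted p = 0.00404), and was lower with the block at -1.87 ± 0.30, or 3.67-fold (limma adjusted p = 0.00740).

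The inflammatory caspases Casp1, Casp4 and Casp12 are neighbours on chromosome 9, next to each other in the GRCm38.p6 gene table. Casp1 (A_51_P142861, chr9:5306226-5306728, an interval longer than those of the other probes) was -2.01, 1.22, 0.93 and 0.25 with CTLs alone on days 1, 3, 5 and 7, against -2.32, -2.63, -2.61 and -2.15 in untreated tumours. Blocked tumours had -1.99, -1.76 and -2.21 on days 3, 5 and 7, against 0.66, 0.93 and 0.12 with IgG. Each CTL or IgG array of days 3 to 7 was above 0, and each blocked or untreated array was at -1.76 or lower. The change was 3.26 ± 0.26 with CTLs, or 9.61-fold (limma adjusted p = 0.000196), and -2.56 ± 0.26 with the block, or 5.88-fold lower (limma adjusted p = 0.00174). The change with CTLs was 2.31 with normexp and 2.53 with all 14 arrays and 1 CTL effect.

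Casp4, whose protein binds cytosolic lipopolysaccharide (A_51_P511787, chr9:5336645-5336704), had 1.04, 4.49, 2.89 and 1.78 with CTLs alone on days 1, 3, 5 and 7, against 0.91, 0.83, 0.52 and 0.92 in untreated tumours. With the block it had 0.66, 0.91 and 0.76, against 4.51, 3.48 and 2.23 with IgG. Its differences shrank most with time among the caspases: with CTLs it was 3.66 above untreated tumours on day 3 and 0.85 above them on day 7. Over the 3 days it rose by 2.29 ± 0.55 with CTLs, or 4.90-fold (limma adjusted p = 0.0170), and was lower with the block at -2.63 ± 0.55, or 6.18-fold (limma adjusted p = 0.0195). Without day 3 these changes were 1.61 and -2.01, and without day 7 the change with CTLs was 3.01.

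Casp12, a further member of the inflammatory caspase cluster (A_51_P487518, chr9:5372258-5372317), was -2.96, 2.34, 1.51 and 0.30 with CTLs alone on days 1, 3, 5 and 7, against -3.36, -3.99, -3.30 and -3.80 in untreated tumours. With the block it was -3.53, -3.14 and -3.72, against 2.00, 1.32 and 0.15 with IgG. It was well above background on all 14 arrays, and the arms with CTLs and intact interferon gamma lay more than 3 log2 units above the others on each of days 3, 5 and 7. The change was 5.08 ± 0.41 with CTLs (limma adjusted p = 0.000196) and -4.62 ± 0.41 with the block (limma adjusted p = 0.00128). With normexp these were 3.37 and -3.32, and the change with CTLs was 4.46 without day 3 and 3.91 with all 14 arrays and 1 CTL effect. Casp12 is one of the 2 genes with letters that match the gamma-activated site in the promoter window shown above. Whether the match has a part in these changes was not tested.

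Fas, the other gene with such a match, was read by a probe spotted 10 times (A_51_P345393, chr19:34393409-34393468) that was well above background on 9 of 14 arrays. It had -4.44, -0.93, -2.32 and -3.01 with CTLs alone on days 1, 3, 5 and 7, against -4.87, -4.52, -4.93 and -3.52 in untreated tumours, where only the day 7 array was well above background. With the block it had -4.04, -4.09 and -4.48, the first not well above background, against -1.47, -2.52 and -2.86 with IgG. The day 7 gap to untreated tumours was small, at 0.50, against 3.60 on day 3. Spots of the probe on 1 array differed with SDs of 0.0480 to 0.574 on the log2 scale, and the SD was largest on dim arrays of untreated tumours. Fas rose by 2.24 ± 0.51 with CTLs, or 4.71-fold (limma adjusted p = 0.0144), and was lower with the block at -1.92 ± 0.51, or 3.78-fold (limma adjusted p = 0.0457). In the comparison with the block this was the call nearest to the threshold of 0.05, and it was lost with the normexp background correction, where the change was -0.89 (limma adjusted p = 0.179). It was also lost without the filter on dim probes (limma adjusted p = 0.0940) and without the day term (limma adjusted p = 0.0549), with the change still at -1.92. The change with CTLs was 1.22 with normexp, 1.56 without day 3 and 3.1 without day 7. The other Fas probe (A_52_P73385, chr19:34375240-34375299) was well above background on 1 array, that of CTLs alone on day 3, at -3.66, and was not tested.

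Casp8, the caspase downstream of Fas (A_51_P247799, chr1:58789303-58789362), had 1.79, 2.39, 1.55 and 1.74 with CTLs alone on days 1, 3, 5 and 7, against 1.83, 1.88, 1.91 and 1.39 in untreated tumours. Under the block it had 1.92, 2.10 and 1.93, against 2.69, 2.08 and 2.08 under IgG. The groups overlapped in both comparisons, and the sign of the same-day difference changed between days. The change was 0.17 ± 0.20 with CTLs (limma adjusted p = 0.544) and -0.30 ± 0.20 with the block (limma adjusted p = 0.354). Its highest levels were on the day 3 arrays of IgG and of CTLs alone, the arrays on which Zbp1, Mlkl, Casp4, Casp12 and Fas were also highest.

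Counted over the 8 genes, 7 were higher and none was lower in tumours with CTLs than in untreated tumours, in a comparison in which 10.1% of the 17028 genes tested were called higher and 21.4% lower, 31.5% in all. The median of the 8 changes was 2.27 on the log2 scale, against -0.10 over all genes tested. With the block, 7 of 8 were lower than under IgG, where 5.93% of genes were called lower and 6.62% higher, 12.5% in all, and the median was -2.24 against 0.06 over all genes. Each of these 7 genes moved the same way on 3 of 3 days in both comparisons, which share no array. The counts differed between fits. With all 14 arrays and 1 CTL effect for all days, which changes both the arrays and the model, 5 genes were called with CTLs and 0 with the block, where the log2 changes were the same and the limma adjusted p-values were 0.0552 to 0.0805 for the 7 genes. Over all genes that fit called 828 higher and 1009 lower with CTLs, and 1 higher and 1 lower with the block. Without day 5 the counts of the 8 genes were 2 with CTLs, Casp1 and Casp12, and 0 with the block. Over all genes 429 were then called higher and 232 lower with CTLs, and 6 higher and 44 lower with the block. Without day 3 the counts of the 8 genes were 4 and 4, with Casp4, Fas and Ripk3 lost in both. Over all genes 676 were then called higher and 423 lower with CTLs, and 67 higher and 332 lower with the block.

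**Figure D2:**
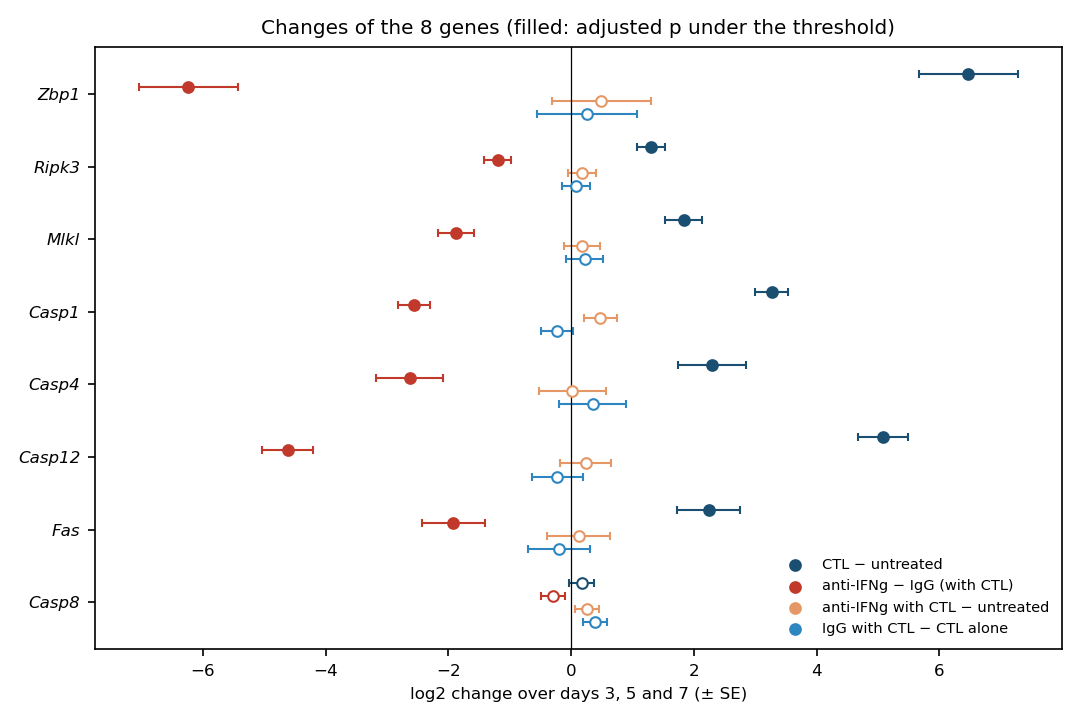
Log2 change (± SE) of each gene over days 3, 5 and 7 in 4 comparisons of the arms, with filled points where the limma adjusted p was under 0.05. The CTL changes and the block changes lie on opposite sides of 0 for each gene. The 7 genes that passed in both run from 1.30 and -1.20 in Ripk3 to 6.47 and -6.23 in Zbp1. Casp8, at 0.17 and -0.30, passed in neither. The changes of the other 2 comparisons lie within 0.49 of 0.

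Control IgG with CTLs was set against CTLs alone, and CTLs with the block against untreated tumours, to see where each antibody arm stood. None of the 8 genes passed the test between IgG and CTLs alone, where changes ran from -0.23 to 0.39 and limma adjusted p-values from 0.325 to 0.872. In that comparison 0.0117% of genes were called, which is 2 genes, and 3207 had an unadjusted p under 0.05. Between blocked and untreated tumours none of the 8 genes passed either, with changes from 0.02 in Casp4 to 0.49 in Zbp1 and limma adjusted p-values from 0.811 to 1.00. There 0.153% of genes were called higher and 0.00587% lower, 0.159% in all or 27 genes, and 1175 had an unadjusted p under 0.05 in either direction. These comparisons share arrays with the ones above, and a p above the threshold does not show that the arms were alike. For Casp1, for example, the blocked tumours differed from untreated ones by 0.64, 0.85 and -0.07 on days 3, 5 and 7, a mean of 0.48 ± 0.26. Zbp1 differed by 2.94, 0.01 and -1.47 on those days, so that its mean of 0.49 ± 0.81 joins days of opposite sign.

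In time, the difference between CTL and untreated tumours opened between days 1 and 3 and then narrowed. On day 1 the 8 differences ran from -0.08 in Ripk3 to 0.57 in Zbp1, with a median of 0.22. The median was 3.63 on day 3, 2.49 on day 5 and 1.05 on day 7, while over all genes it lay between -0.14 and 0.00 on each day. Single days have 1 array per arm and no test of their own. The test below takes the CTL effect of day 1 from 1 pair of arrays. Its errors come from days 3 to 7, and day 1 is assumed to vary like those days. The mean CTL effect of days 3 to 7 was larger than that of day 1 by 4.68 ± 0.83 in Casp12 (limma adjusted p = 0.0478) and by 2.96 ± 0.53 in Casp1 (limma adjusted p = 0.0490), the 2 of 8 genes that passed, where 0.834% of genes were called in this direction and 1.02% in either. Zbp1 had the largest such difference, 5.90 ± 1.62, and did not pass (limma adjusted p = 0.167). With normexp the differences were 3.24 in Casp12, 2.18 in Casp1 and 4.98 in Zbp1, and in Casp12 it was 4.06 without day 3. Neither call held with the normexp background correction, with no filter on dim probes, without the day term or with the arrays of these arms only, and Casp1 alone passed without day 7 and neither without day 3 or day 5. With the block, the same-day medians relative to IgG were -2.61, -2.25 and -1.54 on days 3, 5 and 7.

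**Figure D3:**
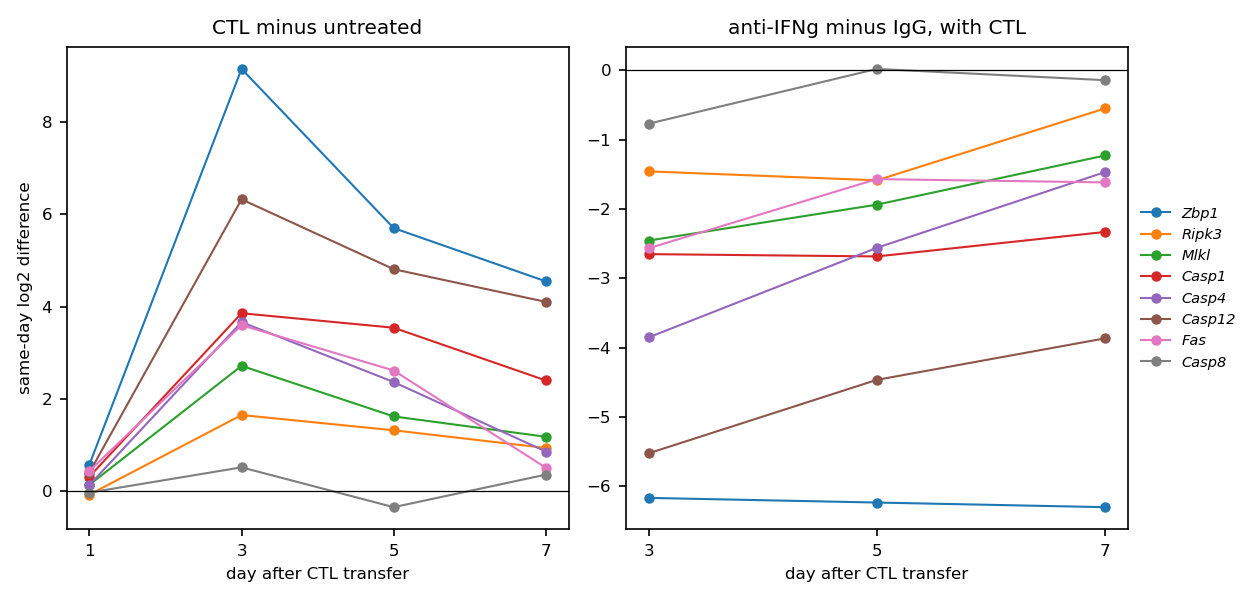
Same-day log2 difference of each gene between tumours with CTLs and untreated tumours (left, days 1, 3, 5 and 7) and between tumours with CTLs and anti-interferon gamma and those with CTLs and IgG (right, days 3, 5 and 7), with 1 pair of arrays per point. On the left the lines are highest on day 3, Zbp1 at 9.16 and Casp8 at 0.51, and on the right the Zbp1 line stays flat, at -6.17 to -6.30, while those of Casp4, Casp12 and Mlkl approach 0.

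Across the 14 arrays the 7 genes that moved tracked each other, with Pearson correlations from 0.87 between Fas and Ripk3 to 0.99 between Casp1 and Casp12. Casp8 correlated with each of them at 0.41 to 0.63. These are descriptions over arrays that share arms and days, and 7 genes carry the same step between the low and the high arms. Of all genes tested, those closest to Zbp1 in this measure were Oasl2, Gbp6 and Irgm2, each at 0.99. For Mlkl they included Phf11d and Dhx58 (1.00 and 0.99), for Casp12 H2-T22, Sp110 and Gbp8, for Casp4 Trafd1, Hsh2d and Isg15, and for Casp1 Rab19, Ccl5 and Fcgr4, all at 0.99. Fas was closest to Rsad2, Prdm1 and Irf2 (0.98), and Ripk3 to Plaat3, B2m and H2-M3 (0.97). Casp8 had another set of nearest genes, Ccdc40, Mitd1 and Zfp513, at 0.93 to 0.94.

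Other genes of the same pathways were read from lists made by function. Over all genes tested, 10.1% were called higher and 21.4% lower with CTLs, and 6.62% higher and 5.93% lower with the block. These are the shares to set beside the counts of each list below. Among 7 other caspases and caspase regulators tested, 2 were higher and 1 lower with CTLs, and 2 were lower with the block. Cflar, which encodes the caspase-8 inhibitor c-FLIP, changed by 0.91 ± 0.16 with CTLs and by -0.80 ± 0.16 with the block. Casp2 was lower with CTLs, at -0.32 ± 0.10 (limma adjusted p = 0.0457), and its change of 0.06 ± 0.10 with the block did not pass. The median of this list was -0.18 with CTLs and 0.06 with the block.

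Of 15 inflammasome and pyroptosis genes tested, 7 were higher and 1 lower with CTLs, and 6 were lower and 1 higher with the block. Gsdmd, the gasdermin cleaved by caspase-1 and caspase-11, rose by 3.04 ± 0.48 with CTLs and was lower with the block at -2.90 ± 0.48. Il1b, a cytokine precursor that caspase-1 matures, changed by 3.49 ± 0.92 and -4.06 ± 0.92, and the inflammasome genes Mefv and Naip2 changed by 2.94 and 1.64 with CTLs and by -2.70 and -1.07 with the block. Gsdmc went the other way, at -1.29 ± 0.17 and 0.82 ± 0.17. Il18, matured by the same caspase, was at 0.74 ± 0.27 and -0.78 ± 0.27 and did not pass (limma adjusted p = 0.0686 and 0.10).

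In the list of 26 necroptosis and TNF receptor genes tested, 7 were higher and 2 lower with CTLs, and 5 were lower and 1 higher with the block. The median change of that list was 0.18 with CTLs and -0.23 with the block. Over all genes tested, 31.5% were called in either direction with CTLs and 12.5% with the block. Ripk1, the kinase that links TNF receptor 1 to RIPK3, did not pass in either, at 0.47 ± 0.18 (limma adjusted p = 0.0841) and -0.63 ± 0.18 (limma adjusted p = 0.0601). Tnf failed to rise well above background on each untreated and each blocked array of days 3 to 7. It could thus pass the probe filter only through other arrays, and its p-values are not independent of that filter. Tnf was at least 5.00-fold higher with CTLs (limma adjusted p = 0.00225) and at least 4.17-fold lower with the block (limma adjusted p = 0.00651). Traf5 and Birc3, adaptor and ubiquitin ligase of TNF receptor signalling, changed by 1.81 and 1.67 with CTLs and by -1.11 and -1.16 with the block, and Tlr4 by -0.81 and 0.64.

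Of 8 death ligand and receptor genes tested, 4 were higher and 1 lower with CTLs, and 4 were lower with the block. Fasl, the ligand of Fas, was well above background on 2 arrays and was not tested. Tnfsf10, which encodes the ligand TRAIL, likewise stayed below that mark on each untreated and each blocked array of days 3 to 7. It too could pass the probe filter only through other arrays, so its p-values have the same limit as those of Tnf. Tnfsf10 was at least 1.61-fold higher with CTLs and at least 1.72-fold lower with the block (limma adjusted p = 0.0105 and 0.0181). Tnfrsf21, a death domain receptor, changed by 2.15 ± 0.28 and -1.63 ± 0.28. The lymphocyte ligand gene Ltb changed by 4.95 ± 0.25 with CTLs and by -1.90 ± 0.25 with the block, and was the gene of this list that was also higher in blocked than in untreated tumours, by 2.51 ± 0.25 (limma adjusted p = 0.0134).

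The mitochondrial apoptosis list had a median near that of all genes, 0.07 with CTLs and -0.10 with the block, with 5 of 20 genes higher and 2 lower with CTLs and 4 lower with the block. The share of all genes called in either direction was 31.5% with CTLs and 12.5% with the block. Within this list the survival gene Bcl2a1b changed by 3.54 ± 0.27 and -1.72 ± 0.27, and Bak1, an effector of mitochondrial permeabilisation, by 0.74 ± 0.12 and -0.61 ± 0.12. Bcl2 was at 0.26 ± 0.18 and 0.03 ± 0.18 and passed in neither. Of 11 nucleic acid sensing genes, 6 were higher with CTLs and 4 lower with the block, among them the RNA helicases Ddx58 (2.51 and -1.94) and Ifih1 (2.20 and -2.31). A reference list for interferon gamma moved furthest, with a median of 4.86 and 8 of 10 higher with CTLs, and -3.74 and 7 of 10 lower with the block. Besides genes that interferon gamma induces, this list holds Ifng and the receptor genes Ifngr1 and Ifngr2. Ifng itself was 5.66 ± 0.56 higher with CTLs, and with the block its change of -1.79 ± 0.56 did not pass (limma adjusted p = 0.0747).

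**Figure D4:**
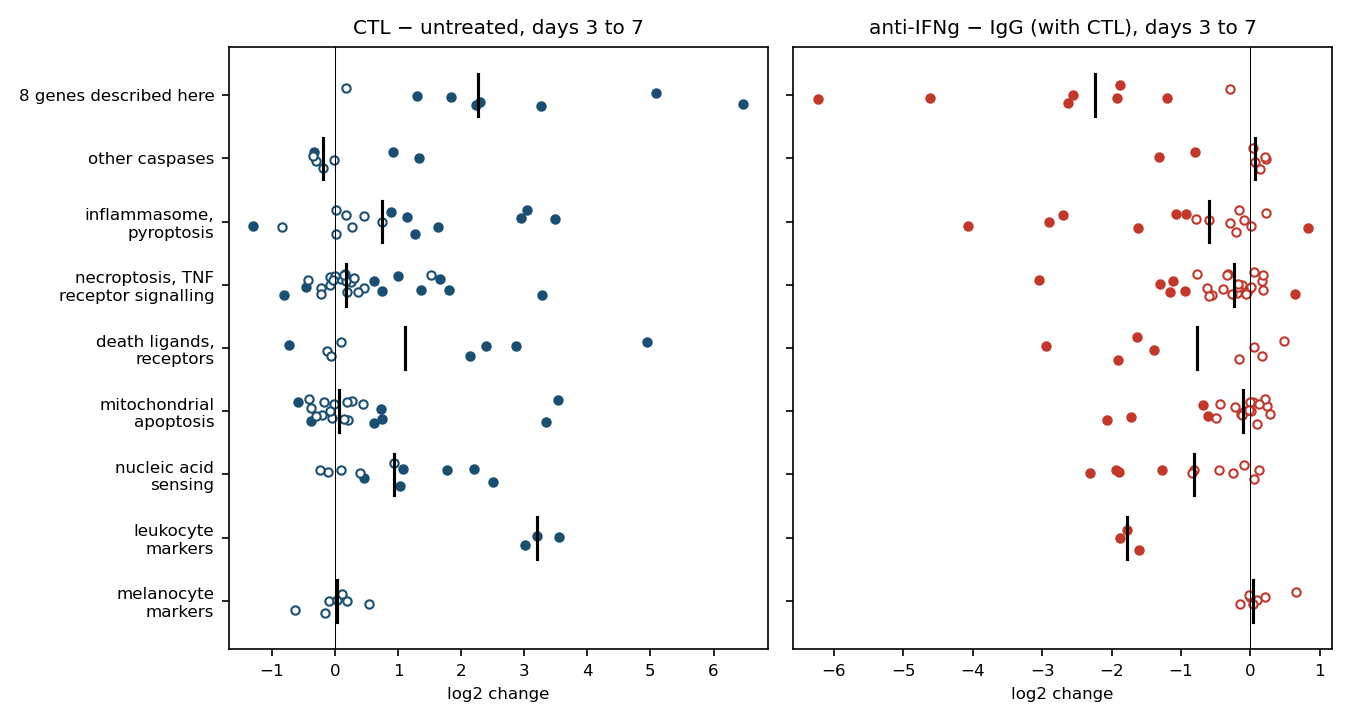
Log2 changes over days 3 to 7 of the 8 genes and of the genes tested in each other list, for CTL against untreated tumours (left) and for anti-interferon gamma against IgG, both with CTLs (right); each point is 1 gene, filled where the limma adjusted p was under 0.05, and vertical bars are list medians; the points of Tnf, Tnfsf10 and Pmaip1 are fitted values, for which only bounds hold. The median of the 8 genes is 2.27 on the left and -2.24 on the right, against -0.18 and 0.06 for the other caspases.

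Leukocyte genes moved with the same arms. The general leukocyte markers Ptprc, Coro1a and Laptm5 were all higher with CTLs (3 of 3, median 3.21) and all lower with the block (3 of 3, median -1.77). Their summed signal, in units of the 75th percentile, was 1.99 to 4.20 with the block, 8.18 to 16.1 with IgG, 10.3 to 16.4 with CTLs alone on days 3 to 7 and 1.35 to 1.56 in untreated tumours. Of 8 monocyte and macrophage markers, 7 were higher with CTLs and 5 lower with the block, with sums of 36.3 to 65.0 with the block, 58.4 to 112 with IgG, 77.4 to 104 with CTLs alone and 21.5 to 24.05 in untreated tumours, and Itgam not well above background in blocked or untreated tumours. Of 8 T cell markers, 6 were higher and 1 lower with CTLs, and 3 were lower and 1 higher with the block, with sums of 2.47 to 3.39 with the block, 3.29 to 6.92 with IgG, 4.32 to 8.67 with CTLs alone and 1.66 to 2.15 in untreated tumours, where Cd3g and Cd8a were not well above background. In blocked relative to untreated tumours, where 0.153% of all genes tested were called higher, 2 of 8 T cell markers were called higher. So were 1 of 3 general leukocyte markers and 0 of 8 monocyte and macrophage markers, and none of these lists had a lower call. Among the calls, Cd8a was at least 4.81-fold higher (limma adjusted p = 0.00285) and Ptprc was higher by 1.43 ± 0.19 (limma adjusted p = 0.0489). Cd8a, dim in untreated tumours, could pass the probe filter only through other arrays. The part of these cells in the changes of the 8 genes was not tested.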

How the data were processed

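Total RNA was extracted from tumours, pooled from 3 to 4 tumours for each array, amplified from 500 ng and labelled with Cy3, per the labels' protocols. Image analysis used Agilent Feature Extraction, listed as 9.5 among the submitters' processing notes and as 9.5.3.1 within the scanner files. Those deposited files give a linear intensity per spot. From their columns the processed signal was taken, which Feature Extraction had already corrected for background, per the file headers. Log2 values deposited by the authors correlated at 1 with the log2 processed signal of each array and served as an alternative.

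Here the log2 processed signal minus the 75th percentile of the non-control spots was used. Spots marked as outliers were left out, spots of a probe were averaged, probes well above background on at least 3 of 14 arrays were kept, and the probe with the highest mean stood for a gene, which gave 17035 genes. No spot of the 8 genes was saturated. Of 41174 probes, 24375 were named by accession through the gene table given, and the others kept their deposited name. Coordinates of probes were copied from the scanner files (build mm8), and no exon annotation was used here.

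Differences were tested with limma 3.58.1 (R 4.3.3) on the 12 arrays of days 3, 5 and 7 with arm and day as terms, and on all 14 with day 1 given its own CTL effect, with p-values adjusted over every gene tested by Benjamini and Hochberg's method and called under 0.05. The day number is shared by the labels of a day's arrays and is also the slide. Of 18 same-day pairs of arrays, 12 had deviations from the arm means that correlated over 0.1 (range -0.0442 to 0.510). Where each array of an arm left a named gene short of the well-above-background mark, its change is printed as a bound, at least N-fold, although counts and medians of lists use fitted values. Alternatives covered background correction, scaling, probe filter and choice, the day term, the arrays fitted and each day left out. The 8 genes, the pathway and marker lists and the choice of arrays were made with earlier results of these data known. Named from each list were up to 4 genes with the smallest p, plus genes fixed by name (among them Ripk1, Gsdmd, Fasl, Tnf, Il1b, Il18, Bcl2 and Cflar), and for likeness the 3 genes with the highest Pearson correlation. Some genes that this rule names are not reported here.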

Additional observations from a re-analysis of the deposited data

Results flagged for a closer look

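Casp8 on the untreated array of day 7 was at 1.39, apart from the other 3 untreated arrays at 1.83 to 1.91. Mlkl on the untreated array of day 5 was at 2.03, apart from the other 3 at 1.82 to 1.85. Chance gives such a gap in about 1 in 20 groups, and 18 groups were examined. The gap of Mlkl is small beside its change of 1.83 with CTLs. The CTL effect of days 3 to 7 exceeded that of day 1 by 2.96 in Casp1 and by 4.68 in Casp12, by the limma test of the difference itself. That test assumes that day 1, with 1 pair of arrays, varied like the other days.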

How the results depend on the processing

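Every call of the 8 genes rests on 1 pool per arm and day, and no alternative turned the direction of a called change. The number of genes called with CTLs was 7, stayed at 7 under every change of background correction, scaling, probe filter or probe choice and without the day block, and was 5 with all 14 arrays and 1 CTL effect, 4 with the arrays of both arms only and 2 to 7 when a day was left out (2 without day 5, 4 without day 3). With the block it was 7, and 6 with normexp, without the filter or with no day block, 5 with the arrays of both arms only, 0 with all 14 arrays and 1 CTL effect, and 0 to 7 when a day was left out (0 without day 5, 4 without day 3). Dropping the day block, a check of the pairing by day, thus lost Fas alone among the calls of the arms. For the CTL effect of days 3 to 7 minus that of day 1 it was 2, and 0 with normexp, with no filter, with no day block and with the arrays of these arms only, and 0 to 1 when a day was left out. Between IgG and CTLs alone, and between blocked and untreated tumours, it was 0 in each. The causes of these shifts were not tested, and fewer arrays were left when a day or an arm was dropped.

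Changes that were never called turned sign as follows. With normexp, Casp8 was at -0.0541 with CTLs and at -0.0089 for days 3 to 7 minus day 1, Casp12 at 0.0114 for IgG minus CTLs alone, and Fas at -0.0499 for blocked minus untreated tumours. With all 14 arrays and 1 CTL effect, IgG minus CTLs alone was 0.14 in Casp1, 0.36 in Casp12 and 0.0271 in Fas, and blocked minus untreated was -0.25 in Casp4, -0.35 in Casp12, -0.10 in Fas, -0.0346 in Mlkl and -0.25 in Zbp1. With a day left out, Casp8 ran from -0.0013 (without day 3) to 0.43 with CTLs, and Ripk3 from -0.0742 (without day 5) to 0.24 for IgG minus CTLs alone. Blocked minus untreated then ran from -0.17 (without day 5) to 0.11 in Casp4, from -0.24 (without day 5) to 0.66 in Fas, where it was -0.06 without day 3, and from -0.73 (without day 3) to 1.48 in Zbp1.

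Over all genes, 5360 were called with CTLs, and 3294 without the filter, 1837 with all 14 arrays and 1 CTL effect, 836 with the arrays of both arms only and 661 to 5109 with a day left out. With the block 2136 were called, and 644 with normexp, 1144 without the filter, 2 with all 14 arrays and 1 CTL effect, 912 with the arrays of both arms only and 50 to 1375 with a day left out. Blocked against untreated tumours gave 27, and 0 to 54 under the alternatives. IgG against CTLs alone gave 2, and 0 to 4. Days 3 to 7 minus day 1 gave 173, and 0 to 295. Normexp moved the share of higher calls to 45.0% (main setting 32.1%) with CTLs, to 21.7% (main setting 52.8%) with the block and to 93.0% (main setting 82.1%) for days 3 to 7 minus day 1. With CTLs this share was 45.1% with all 14 arrays and 1 CTL effect, 68.9% with the arrays of both arms only, 61.5% without day 3 and 64.9% without day 5, so that the majority turned in the last 3. With the block it was 39.3% without the filter, 35.2% with the arrays of both arms only, 16.8% without day 3, 12% without day 5 and 45.6% when day 7 was dropped. The median of all genes with CTLs was -0.10, and 0.08 with normexp and -0.24 when arrays were scaled to the median.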

Other observations

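The CTL effect of days 3 to 7 also exceeded that of day 1 in Ltb, by 4.64 ± 0.50 (limma adjusted p = 0.00871), and in Bcl2a1b, by 3.06 ± 0.53 (limma adjusted p = 0.0454), genes picked for this after their values were seen. Day 1 was again assumed to vary like the other days. Pmaip1, the BH3-only gene that encodes NOXA, stayed too dim to be well above background on each untreated array of days 3 to 7. It could thus pass the probe filter only through other arrays. Pmaip1 was at least 5.27-fold higher with CTLs (limma adjusted p = 0.000251). With the block it was lower than with IgG, at -2.06 ± 0.28 (limma adjusted p = 0.0046).

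Keratinocyte markers (3 of 3 tested) were higher with CTLs alone than in untreated tumours, with a median of 1.22. Summed, their signal was 0.738 to 1.34 with CTLs alone and 0.333 to 0.538 in untreated tumours. With CTLs and IgG the sum was 0.331 to 0.448, so the rise was not seen in that arm. Between IgG and CTLs alone the median change was -1.39, and none of the 3 markers passed the test. The 3 natural killer cell markers tested were not well above background in untreated tumours and so could pass the filter only through other arms; with CTLs Klrk1 was at least 9.09-fold higher, Klra8 at least 1.95-fold and Klrb1c at least 1.68-fold (limma adjusted p = 0.000534, 0.000431 and 0.00169). Among 5 endothelial markers 2 were lower with CTLs and 3 were higher with the block than with IgG. Their summed signal was lowest with IgG, at 0.458 to 0.616, where Cdh5 and Kdr were not well above background. It was 0.960 to 0.993 with the block, 0.743 to 0.892 with CTLs alone and 1.24 to 2.08 in untreated tumours. Neutrophil markers had summed signals of 0.216 to 0.603 with the block, 1.16 to 50.02 with IgG, 1.21 to 6.44 with CTLs alone and 0.209 to 0.957 in untreated tumours, and 2 of the 3 (Csf3r and S100a8) were not well above background with the block. The part of these lists in the changes of the cell death genes was not tested.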
